A study of Mus musculus with 30 samples.

Results

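The genes described here encode subunits of the Polycomb complexes, of the trithorax and COMPASS histone methylation machinery, and of the BAF, CHD and NuRD remodelling complexes, with a pair of genes for silencing by histone H3 lysine 9 methylation. A given list of 39 gene symbols was looked up among the array's probe sets, a probe set being the group of probes that reports a transcript; those that name a single gene were used, and where a gene had several, the brightest on average was kept. This gave 38 genes of the 19938 measured. The only probe set of Cbx6, a PRC1 chromobox gene, also names Npcd and Nptxr, and it was left out. The 38 genes are 9 of PRC2, 11 of PRC1, 5 of the demethylase Kdm6b and the COMPASS group, 5 of BAF, 6 of the CHD and NuRD group, and the silencing genes Setdb1 and Trim28.

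The study compared definitive endoderm of mouse: that derived from embryonic stem (ES) cells, from induced pluripotent stem (iPS) cells and from embryos, on 30 Affymetrix arrays in 10 groups of 3 biological replicates. Without amplification, day 0 and day 5 were measured in ES cells and in 2 iPS clones, named ST5 and ST8, which gave 18 arrays. With amplification of the RNA, ES cells at day 0 and day 5 and 2 populations of E8.25 embryos were measured on 12 further arrays. No treatment other than differentiation is named, and the labels give no sex.

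ES and iPS cells had the strain C57BL/6x129SvJae, and each iPS line was 1 clone, so a difference between lines is a difference between these lines and not between ES and iPS cells in general. Day 0 cells were sorted as Sox2bright and day 5 cells as ckit+/Sox2dim, so differentiation and the change of sorting gate cannot be told apart. The embryos were Swiss Webster; foregut endoderm was sorted as ENDM1+/Epcam+/SSlo, and the comparison cells were Epcam+ and ENDM1 negative. Cultured cells and embryos also differed in strain and in the RNA extraction kit, so these cannot be told apart from the source of the cells. In such bulk samples, fewer cells of a type and less RNA per cell cannot be told apart.

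On pluripotency and definitive endoderm markers the cultured cells changed as their labels say. From day 0 to day 5, 7 of 8 pluripotency markers fell in ES cells and 8 of 8 in either clone, while 8 of 8 definitive endoderm markers rose in each line. All 8 fibroblast markers fell in each line: their mean level was 7.66 to 8.27 on the log2 scale over the unamplified day 0 arrays and 4.91 to 5.43 at day 5. Of 9 cell cycle genes measured, 6 fell in ST8, 8 in ST5 and 8 in ES cells. The part of these shifts in the results below was not tested. At day 5 an array stood apart in ES cells (replicate 1) and another in ST8 (replicate 2): each was the farthest of its 3 replicates for 51.2% and 54.2% of all genes. Their mean over the pluripotency markers was 6.66 and 6.07, below the 7.20 to 7.30 of the other ES and ST8 arrays, and that over the endoderm markers was 9.63 and 9.71, above their 8.28 to 8.36. The 3 ST5 arrays at day 5 lay at 6.04 to 6.20 and 9.61 to 9.69. Among the amplified ES arrays at day 5, replicate 1 likewise lay at 6.52 and 8.75, against 7.06 to 7.11 and 7.85 to 7.86 on the others, and was the farthest for 41.8% of all genes.

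Polycomb proteins keep genes silent through histone marks. PRC2 methylates histone H3 on lysine 27 through Ezh2 or Ezh1, which are active only in a complex with Eed and Suz12; PRC1 reads that mark through Cbx proteins and places ubiquitin on histone H2A through Ring1 or Rnf2, joined by a Pcgf protein that sets the complex type. Trithorax proteins act in the opposite sense at the same genes, and BAF and CHD remodellers move nucleosomes. In ES cells the Polycomb complexes cover many developmental genes, endoderm regulators among them, and subunits are known to be exchanged as cells leave pluripotency.

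Between day 0 and day 5 the genes changed in both directions. Paralogs such as Cbx7 and Cbx2, Phc1 and Phc2, and Hdac1 and Hdac2 were called in opposite directions in all 3 lines. In ES cells 11 of 38 genes rose (18.9% of all genes did) and 16 fell (19.7%), with a median difference of -0.03. In ST5, 14 rose (background 23.2%) and 12 fell (24.8%), and in ST8 12 rose (21%) and 15 fell (19.5%), with medians of 0.01 and -0.02. A gene counts as changed where its p in limma, adjusted by the Benjamini-Hochberg method over the 19938 genes, is under 0.05, and a difference of 1 on the log2 scale is a 2-fold change. The genes are bright: 35 of the 38 lay above the median level of all genes, 5.96, with a median of 8.92 on the log2 scale, and bright genes were called more often. With the dimmer 50% of genes left out, 35 of the 38 remained. Of these 28.6% rose and 42.9% fell in ES cells, against 30.1% and 33.2% of all genes kept. The shares were 40% and 37.1% in ST5 (37.3% and 35.8%) and 37.1% and 45.7% in ST8 (34.3% and 30.8%), so the members' shares of rises lay near the background in each line. After shifting arrays to a common median, ST8 gave 8 rises and 17 falls and ES cells 8 and 16. That shift moved all genes alike: the share of rises among all calls went from 51.7% to 40.6% in ST8 and from 49% to 38.5% in ES cells. With both day 5 arrays that stood apart left out, a choice made after seeing the data, ES cells gave 13 rises and 16 falls and ST8 gave 14 and 16. Of all genes 42.5% and 42.4% were then called.

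Each line has its own arrays at both days. In all of them 8 genes rose, 21.1% of the 38 against 13.8% of all genes: Bmi1, Cbx2, Cbx8, Phc2, Kdm6b, Smarcc2, Chd7 and Hdac2. Another 12 fell in all of them, 31.6% against 14.3%: Eed, Suz12, Jarid2, Mtf2, Pcgf6, Cbx7, Phc1, Wdr5, Ash2l, Hdac1, Setdb1 and Trim28. Under every alternative run, 5 of the 8 kept their calls in all lines (not Cbx8, Phc2 and Hdac2) and 9 of the 12 (not Ash2l, Phc1 and Setdb1). Among the brighter genes alone the shares were 22.9% against 24.5% for rises and 37.1% against 24.7% for falls. No line gave a call for 6 genes (Ezh1, Rbbp4, Kdm2b, Smarca2, Chd1 and Mbd3). Kmt2a alone was called in opposite directions.

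**Figure D1:**
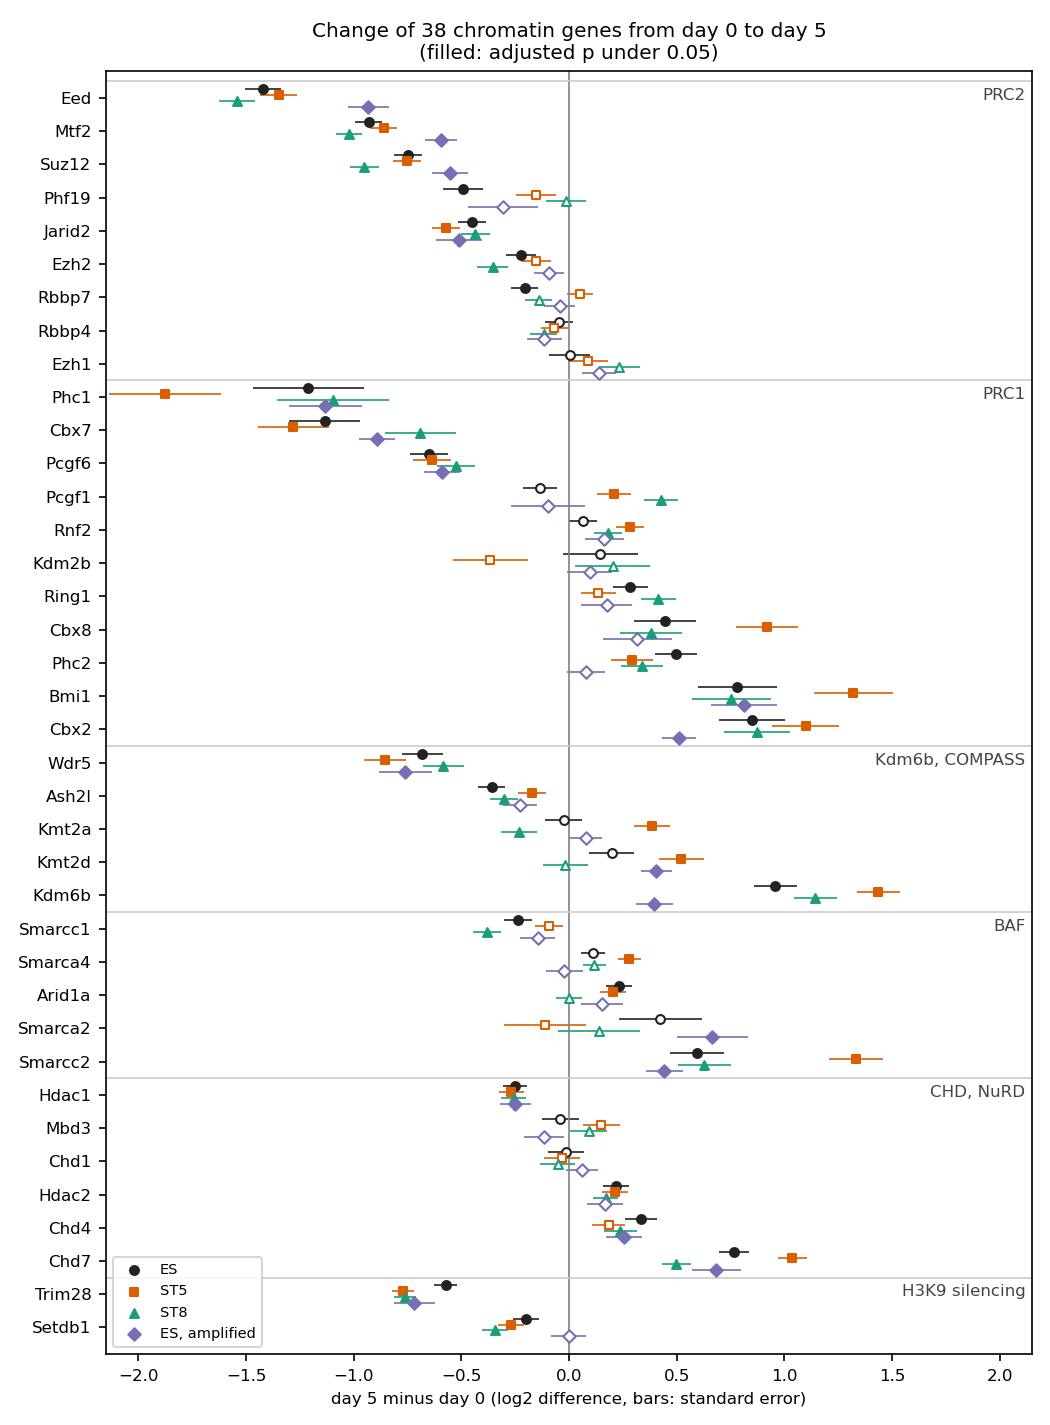
Each row is a gene, grouped by complex, and the horizontal axis is the day 5 minus day 0 difference on the log2 scale with its standard error, for the unamplified ES, ST5 and ST8 arrays and the amplified ES arrays (3 arrays per group); filled symbols passed an adjusted p of 0.05. Eed, Mtf2, Suz12, Phc1 and Cbx7 lie to the left and Kdm6b, Bmi1, Cbx2, Smarcc2 and Chd7 to the right in all 4 comparisons.

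In PRC2 all calls were falls: 7 of 9 genes in ES cells (77.8%), 5 in ST8 (55.6%) and 4 in ST5 (44.4%). Of all genes 19.7%, 19.5% and 24.8% fell, and of the brighter genes 33.2%, 30.8% and 35.8%. The fall was large for Eed, the subunit that binds methylated lysine 27, and for Suz12, the scaffold of the complex, and small or absent for the catalytic subunits. On the ES arrays Eed read 9.31, 9.28 and 9.30 at day 0 and 7.90, 7.97 and 7.76 at day 5. In ST5 it read 9.54, 9.52 and 9.76 and then 8.30, 8.29 and 8.19, and in ST8 9.73, 9.69 and 9.65 and then 8.28, 7.97 and 8.20. No day 5 array reached any day 0 array. The log2 differences were -1.42 (SE 0.09, adjusted p = 1.99e-09), -1.35 (SE 0.09) and -1.54 (SE 0.09), 2.68-fold, 2.55-fold and 2.91-fold lower levels. These values come from the brighter of 2 Eed probe sets, with a mean of 9.09; the other has a mean of only 3.92 and differed by 0.20, -0.15 and 0.20. The mean of both gave -0.61, -0.75 and -0.67, still called in each line.

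Suz12 read 9.83, 9.76 and 9.79 on the ES arrays at day 0 and 9.06, 9.06 and 9.03 at day 5. The clones moved from 9.93 to 10.29 over their 6 day 0 arrays to 9.19 to 9.33 at day 5, with no overlap. The differences were -0.75 (SE 0.07, adjusted p = 1.55e-07) in ES cells, -0.95 in ST8 and -0.75 in ST5. Mtf2, a Polycomb-like protein that brings PRC2 to CpG-rich DNA, read 10.53, 10.45 and 10.47 in ES cells at day 0 and 9.55, 9.58 and 9.54 at day 5. Its differences were -0.93 (SE 0.06), -0.86 and -1.02, or 1.91-fold, 1.82-fold and 2.03-fold lower levels. Jarid2, which helps recruit PRC2 and tunes its activity, fell by 0.45 (SE 0.07, adjusted p = 3.51e-05), 0.57 and 0.43. Its ES arrays read 10.15, 10.02 and 10.10 and then 9.78, 9.53 and 9.61.

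Ezh2, the main methyltransferase of dividing cells, read 10.32, 10.22 and 10.33 in ES cells at day 0 and 10.08, 10.06 and 10.06 at day 5, -0.22 (SE 0.07, adjusted p = 0.0185). The call was lost after a further quantile normalization (adjusted p = 0.0902) and without ES day 0 replicate 1 (0.0643) or 3 (0.0649). ST8 differed by -0.36 (SE 0.07, adjusted p = 0.000615) and ST5 by -0.15 (SE 0.07, adjusted p = 0.0844, not called). Ezh1, the alternative enzyme known from resting cells, differed by 0.00, 0.09 and 0.23 (SE 0.09 each) and was not called; without ST8 day 5 replicate 2 the ST8 value was 0.36 with an adjusted p of 0.00194. Phf19, another Polycomb-like protein, fell in ES cells (-0.49, SE 0.09), from 6.00, 6.04 and 5.89 to 5.51, 5.38 and 5.56. In ST5 and ST8 it differed by -0.15 and -0.01, and was not called there. The histone-binding subunits Rbbp4 and Rbbp7, shared with NuRD, moved little: Rbbp7 was called in ES cells alone, at -0.21 (SE 0.06), and not with its probe set of largest spread (adjusted p = 0.11) or without ES day 5 replicate 1 (0.0523).

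Upstream sequences are shown for 4 of the 20 genes called in the same direction in all lines: Eed and Suz12, which fell, and, further on, Bmi1 and Smarcc2, which rose. RefSeq promoters of the GRCm38.p6 build were held for 31 of the 38 genes, 40 promoters in all; Ash2l, Cbx2, Chd1, Chd7, Hdac1, Kdm6b and Pcgf1 had no entry. In the 250 bases before the start site, the median GC content was 66.8% against 52.4% over all 32851 promoters, and 37 of 40 (92.5%) had a ratio of observed to expected CpG above 0.6, against 33.95%. Eed lies on the minus strand and its 250 bases are chr7:89980977-89981226, with 12 CpG; Suz12 lies on the plus strand at chr11:79992856-79993105, with 37 CpG. Capitals mark motif matches on either strand.
Eed: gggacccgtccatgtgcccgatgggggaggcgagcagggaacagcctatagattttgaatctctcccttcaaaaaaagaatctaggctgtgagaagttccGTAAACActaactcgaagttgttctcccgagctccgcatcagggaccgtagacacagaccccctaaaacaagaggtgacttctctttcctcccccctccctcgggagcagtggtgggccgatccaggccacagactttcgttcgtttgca
Suz12: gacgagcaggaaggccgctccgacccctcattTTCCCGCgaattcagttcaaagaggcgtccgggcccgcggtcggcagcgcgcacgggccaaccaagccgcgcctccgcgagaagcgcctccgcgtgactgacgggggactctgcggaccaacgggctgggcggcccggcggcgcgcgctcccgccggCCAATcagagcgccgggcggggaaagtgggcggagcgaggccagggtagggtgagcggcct
A set of 10 short motifs was searched on both strands. The forkhead motif TGTTTAC was found in 2 of 40 promoters (5%; 3.166% of all promoters), among them Eed, 150 bases upstream. The E2F motif TTCCCGC was found in 4 (10%; 3.817%), in Suz12 218 bases upstream, and CCAAT in 15 (37.5%; 33.85%), in Suz12 61 bases upstream. The CRE motif TGACGTC was found in 4 (10%; 2.782%), the ETS motif CCGGAAG in 4 (10%; 6.907%), the E-box CACGTG in 4 (10%; 6.021%), the NRF1 motif GCGCATG in 3 (7.5%; 3.236%) and the octamer ATGCAAA in 3 (7.5%; 4.125%). The GATA motif AGATAAG was found in 1 (2.5%; 2.737%) and the Sox motif ACAATGG in 0 (3.02%). Several genes have more than 1 promoter, and no motif overlapped another in the sequences shown.

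In PRC1, 7 of 11 genes rose in ST8 (63.6%), 6 in ST5 (54.5%) and 5 in ES cells (45.5%), and 3 fell in each line (27.3%). Of all genes 21%, 23.2% and 18.9% rose, and 19.5%, 24.8% and 19.7% fell. Of the brighter genes 34.3%, 37.3% and 30.1% rose, and 30.8%, 35.8% and 33.2% fell. Chromobox and Pcgf genes moved in opposite directions: Cbx7 and Pcgf6 fell, and Cbx2, Cbx8 and Bmi1 rose. Cbx7, the main chromobox protein of PRC1 in ES cells, read 8.76, 8.54 and 8.76 in ES cells at day 0 and 7.29, 7.69 and 7.66 at day 5. The differences were -1.14 (SE 0.16, adjusted p = 3.45e-05) in ES cells, -0.69 in ST8 and -1.28 in ST5. In ST8 the day 5 arrays read 8.19, 7.47 and 8.29, and without the second the difference was -0.44 (adjusted p = 0.0068).

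Cbx2, a chromobox protein that compacts chromatin and acts in differentiated cells, read 7.69, 7.81 and 7.66 in ES cells at day 0 and 8.70, 8.46 and 8.56 at day 5. It rose by 0.85 (SE 0.15, adjusted p = 0.000294), 1.10 and 0.87. Cbx8 rose by 0.44 (SE 0.14), 0.92 and 0.38. The ES call of Cbx8 was lost after centring on a common median (adjusted p = 0.0607) and without ES day 5 replicate 1 (0.0777) or ES day 0 replicate 1 (0.0996). Its ST8 call was lost in 9 of 15 alternatives, at adjusted p values up to 0.276, which was that without ST8 day 5 replicate 2.

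Phc1, a Polyhomeotic protein through which PRC1 polymerises, gave the largest fall of the 38 genes in ST5. It read 9.82, 9.78 and 9.82 at day 0 and 7.87, 7.99 and 7.92 at day 5 there, a difference of -1.88 (SE 0.26, adjusted p = 1.28e-05). In ES cells it read 10.14, 10.02 and 10.11 and then 8.46, 9.09 and 9.09, and in ST8 10.14, 10.08 and 10.07 and then 9.56, 8.08 and 9.36. Its day 5 values were thus uneven in ES cells and ST8, with the lowest value of each on the array that stood apart; that of ST8 lay close to ST5, and that of ES cells between ST5 and the other ES arrays. The differences were -1.21 (SE 0.26) and -1.10 (SE 0.26), and -0.64 in ST8 without replicate 2 (adjusted p = 0.0012). Fitting only the ST8 groups took its adjusted p to 0.0526. Phc2, its paralog, rose by 0.50 (SE 0.10), 0.29 and 0.34. The ST5 call was lost in 5 of 15 alternatives (adjusted p 0.0604 to 0.142) and the ST8 call after a further quantile normalization (0.102).

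Bmi1 (Pcgf4), the Pcgf subunit of canonical PRC1, read 6.74, 6.39 and 6.56 in ES cells at day 0 and 7.71, 7.32 and 7.01 at day 5. In ST5 it went from 6.78, 6.91 and 6.85 to 8.01, 8.21 and 8.28, and in ST8 from 6.67, 6.57 and 6.72 to 7.27, 7.90 and 7.05. Every day 5 array was above every day 0 array. The rises were 0.78 (SE 0.18, adjusted p = 0.00256), 1.32 (SE 0.18) and 0.75 (SE 0.18), which are 1.72-fold, 2.5-fold and 1.69-fold. Pcgf6, of a variant PRC1 known from germline gene silencing in ES cells, fell by 0.65 (SE 0.09), 0.64 and 0.52. Pcgf1, which forms the variant complex with Kdm2b, rose in ST8 (0.43, SE 0.08) and ST5 (0.21, SE 0.08) and differed by -0.13 in ES cells, not called. The catalytic subunit Rnf2 rose in ST5 and ST8, by 0.28 and 0.18 (SE 0.07 each), and Ring1 in ES cells and ST8, by 0.28 and 0.41 (SE 0.08 each). Leaving out ES day 5 replicate 3 ended the ES call of Ring1 (adjusted p = 0.0542). The ST5 call of Pcgf1 was lost in 8 of 15 alternatives and the ST8 call of Rnf2 in 7 of 16, each without several single arrays. The RefSeq sequence before the Bmi1 start site is chr2:18676768-18677017 on the plus strand, with 21 CpG, and holds an E-box 215 bases upstream.
Bmi1: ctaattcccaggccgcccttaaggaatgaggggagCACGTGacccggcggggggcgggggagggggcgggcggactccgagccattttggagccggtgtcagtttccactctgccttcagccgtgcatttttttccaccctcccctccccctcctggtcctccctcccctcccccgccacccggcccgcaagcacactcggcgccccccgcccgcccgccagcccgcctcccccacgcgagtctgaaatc

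**Figure D2:**
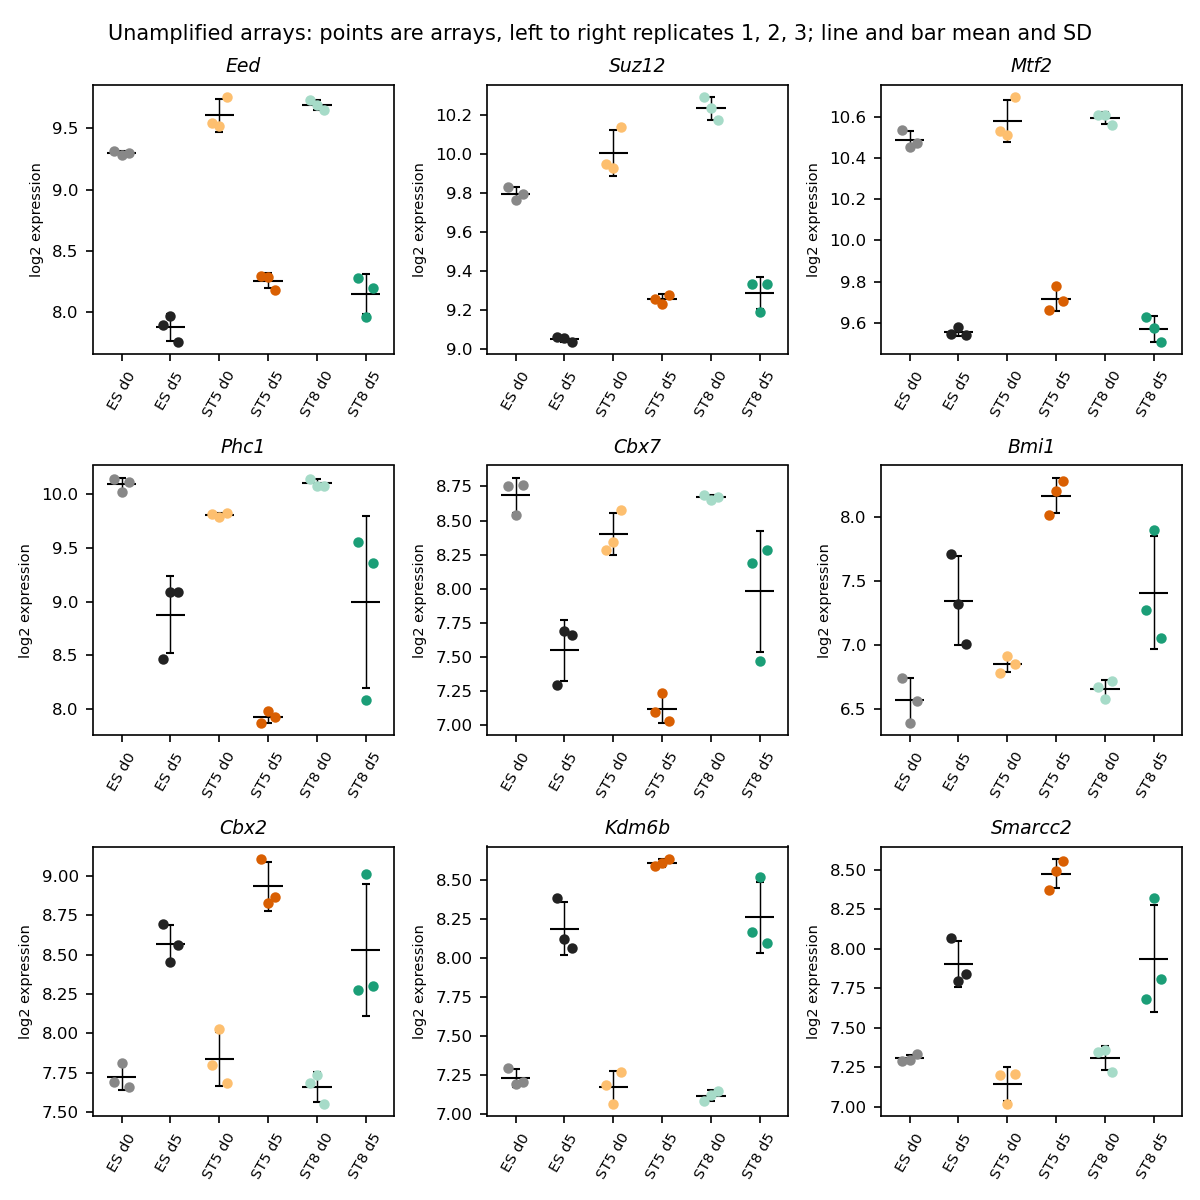
Log2 expression of 9 genes on the 18 unamplified arrays, 3 per group, with the mean and SD of each group; vertical axes differ between panels and do not start at 0. Eed, Suz12, Mtf2, Phc1 and Cbx7 are lower and Bmi1, Cbx2, Kdm6b and Smarcc2 higher at day 5 on every array of each line, and the day 5 values of Phc1 spread from 8.08 to 9.56 in ST8.

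Kdm6b, which removes the lysine 27 methylation that PRC2 places, rose in every line, the largest rise of the 38 genes in ES cells, ST5 and ST8. It read 7.29, 7.19 and 7.21 in ES cells at day 0 and 8.38, 8.12 and 8.06 at day 5. The rises were 0.96 (SE 0.10, adjusted p = 1.14e-06), 1.44 and 1.14, or 1.94-fold, 2.71-fold and 2.21-fold. The ST8 day 5 arrays read 8.17, 8.52 and 8.09 against 7.08 to 7.15 at day 0, with no overlap.

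The COMPASS core subunit Wdr5, which presents the histone tail to the methyltransferases, fell by 0.68 (SE 0.10), 0.85 and 0.58. It read 9.02, 9.03 and 9.01 in ES cells at day 0 and 8.27, 8.39 and 8.37 at day 5. Ash2l, another core subunit, fell by 0.36 (SE 0.06), 0.17 and 0.30; in ST5 8 of 15 alternatives lost the call, at adjusted p values up to 0.136. The methyltransferases Kmt2a and Kmt2d were not called in ES cells, and both rose in ST5, by 0.39 (SE 0.08) and 0.52 (SE 0.10). Kmt2a read 7.89, 7.96 and 8.26 at day 0 and 8.41, 8.41 and 8.45 at day 5 in ST5. In ST8 it went the other way, from 8.47, 8.44 and 8.40 to 8.20, 8.22 and 8.20 (-0.23, SE 0.08, adjusted p = 0.037). That fall was not called after leaving out any 1 of the 6 ST8 arrays, at adjusted p values of 0.0575 to 0.102.

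Among BAF genes the scaffold paralogs Smarcc1 and Smarcc2 differed in direction. Smarcc2 (BAF170), known from differentiated cells, read 7.29, 7.29 and 7.33 in ES cells at day 0 and 8.07, 7.79 and 7.84 at day 5. In ST5 it went from 7.20, 7.02 and 7.21 to 8.37, 8.49 and 8.56, and in ST8 from 7.35, 7.36 and 7.22 to 7.68, 8.32 and 7.81. No day 5 array overlapped with day 0, and the ST5 arrays were the highest. It rose by 0.59 (SE 0.13, adjusted p = 0.00109), 1.33 (SE 0.13, adjusted p = 2.13e-07) and 0.63 (SE 0.13). Smarcc1 (BAF155), the scaffold prevalent in ES cells, fell by 0.24 (SE 0.07) in ES cells and 0.38 in ST8, and differed by -0.09 in ST5, not called; the ES call was lost after a further quantile normalization (adjusted p = 0.0591). The ATPase Smarca4 (BRG1) rose in ST5 by 0.28 (SE 0.05) and differed by 0.11 and 0.12 in ES cells and ST8, not called. The alternative ATPase Smarca2 (BRM) was not called in any line, at 0.42, -0.11 and 0.14 (SE 0.19 each). Arid1a, the DNA-binding subunit, rose by 0.23 and 0.20 in ES cells and ST5 (SE 0.06 each), calls that were lost with a common median in ES cells (adjusted p = 0.0556) and without ST5 day 5 replicate 3 in ST5 (0.0515). The RefSeq sequence before the Smarcc2 start site, chr10:128458986-128459235 on the plus strand, has 40 CpG and none of the motifs searched.
Smarcc2: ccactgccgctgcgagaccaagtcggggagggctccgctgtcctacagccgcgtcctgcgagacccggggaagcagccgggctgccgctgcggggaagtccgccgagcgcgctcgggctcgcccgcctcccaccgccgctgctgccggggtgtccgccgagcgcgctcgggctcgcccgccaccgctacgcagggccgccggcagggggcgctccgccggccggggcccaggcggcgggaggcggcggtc

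In the CHD and NuRD group, Chd7, a remodeller of enhancers, rose in each line. It read 8.87, 9.01 and 8.89 in ES cells at day 0 and 9.61, 9.76 and 9.69 at day 5. The rises were 0.77 (SE 0.07, adjusted p = 2.16e-07), 1.04 and 0.50 (SE 0.07 each). All 30 probe sets that name Chd7 alone were higher at day 5 in each line, with a range of 0.60 to 0.90 in ES cells, 0.74 to 1.17 in ST5 and 0.28 to 0.71 in ST8. The lowest ST8 value, 0.28, is that of the probe set with the largest spread (adjusted p = 0.00348). Chd4, the NuRD ATPase, rose in ES cells and ST8 by 0.33 and 0.24 (SE 0.08 each). The deacetylases went opposite ways by small amounts: Hdac1 fell by 0.25, 0.27 and 0.26 (SE 0.06 each), and Hdac2 rose by 0.22, 0.21 and 0.17 (SE 0.06 each). Centring arrays on a common median took the Hdac2 call away in ES cells (adjusted p = 0.0706) and ST8 (0.217), and in ST8 the calls of Hdac2 and Chd4 were lost in 7 and 6 of 16 alternatives. Chd1 and the NuRD subunit Mbd3 were not called.

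Trim28 (KAP1), the corepressor that brings Setdb1 to retroelements, read 11.43, 11.35 and 11.38 in ES cells at day 0 and 10.84, 10.80 and 10.80 at day 5. It fell by 0.57, 0.77 and 0.76 (SE 0.05 each). Setdb1, the lysine 9 methyltransferase, fell by 0.20, 0.27 and 0.34 (SE 0.06 each); the ES call was lost when only the ES groups were fitted (adjusted p = 0.0771) and without ES day 5 replicate 3 (0.0792) or ES day 0 replicate 1 (0.0595).

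Of 100 other genes of the same complexes, 96 were measured, and in ES cells 23 rose (24%, against 18.9% of all genes) and 30 fell (31.2% against 19.7%), with a median difference of -0.05. In ST5 38 rose (39.6% against 23.2%) and 27 fell (28.1% against 24.8%), and in ST8 20 rose (20.8% against 21%) and 35 fell (36.5% against 19.5%). The largest falls in ES cells were those of L3mbtl2 (-1.05, SE 0.09), an adaptor of the Pcgf6 complex, Chd9 (-0.89), Usp7 (-0.81), a deubiquitinase found with variant PRC1, and the NuRD subunit Mta3 (-0.81). The largest rises were those of Bcorl1 (1.11, SE 0.07), a partner of Pcgf1, Yaf2 (1.0), which binds Ring proteins, Chd3 (0.76), a NuRD ATPase, and Asxl3 (0.76), of the PR-DUB deubiquitinase. The first 3 rises and all 4 falls were also called in ST5 and ST8; Asxl3 was called in ST5 (1.46) and not in ST8 (0.43, adjusted p = 0.199). Of 12 genes of the ISWI and INO80 remodellers, 6 fell in ES cells (50%), 8 in ST8 (66.7%) and 4 in ST5 (33.3%), where 1 rose, against 19.5% to 24.8% of all genes that fell in a line. These backgrounds include dim genes. Among the brighter genes 33.2% fell in ES cells, 30.8% in ST8 and 35.8% in ST5, and 30.1%, 34.3% and 37.3% rose. Shares of the 96 genes among the brighter genes alone were not computed.

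The responses of the lines were also compared directly. ST5 and ST8 were each set against the same ES arrays, so those comparisons share samples. Smarcc2 rose more in ST5 than in ES cells, by 0.74 (SE 0.18, adjusted p = 0.0263), the only call among 38 genes, where 5.58% of all genes were called. Of 22 alternatives 7 lost this call: leaving out ES day 5 replicate 2 or 3, ES day 0 replicate 1 or 3, ST5 day 0 replicate 2, or ST5 day 5 replicate 2 or 3, with adjusted p values of 0.0559 to 0.0741. Without the ES and ST8 arrays that stood apart at day 5, 10 genes were called and 26.5% of all genes.

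Pcgf1 had a higher response in ST8 than in ES cells, by 0.56 (SE 0.11, adjusted p = 0.0234), again the only call (0.838% of all genes). It read 7.46, 7.48 and 7.26 at day 0 and 7.82, 7.77 and 7.89 at day 5 in ST8, against 7.62, 7.59 and 7.73 and then 7.61, 7.51 and 7.41 in ES cells. The ST8 arrays were thus lower than those of ES cells at day 0 and higher at day 5. The call was lost in 9 of 22 alternatives: with only the groups of the contrast, with all 30 arrays in 1 fit, and without ST8 day 5 replicate 1 or 3, ES day 5 replicate 2 or 3, ES day 0 replicate 1 or 3 or ST8 day 0 replicate 3, at adjusted p values of 0.0505 to 0.208.

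Between the clones, the ST5 response exceeded that of ST8 for Kmt2a, by 0.62 (SE 0.12, adjusted p = 0.0236), and for Chd7, by 0.54 (SE 0.10, adjusted p = 0.0197), against 2.17% of all genes called. Smarcc2 differed by 0.70 with an adjusted p of 0.0502, and was not called. The Kmt2a call was lost in 9 of 22 alternatives (adjusted p 0.0509 to 0.0702) and that of Chd7 in 4 (0.0502 to 0.0609), among them a fit of only the groups of the contrast. The other losses of Kmt2a came without ST8 day 5 replicate 1 or 3, any ST8 day 0 replicate, ST5 day 0 replicate 2 or ST5 day 5 replicate 1 or 3; those of Chd7 without ST8 day 5 replicate 3, ST5 day 0 replicate 2 or ST8 day 0 replicate 1. Without ST8 day 5 replicate 2 the number of genes called was 14, and 19.8% of all genes were called. No difference between responses was called for Ezh2, Ezh1, Eed, Suz12, Jarid2, Smarca2 or Smarca4; for Eed they were 0.07 (SE 0.12) between ST5 and ES cells, -0.12 between ST8 and ES cells and 0.19 between the clones. Smarca2 differed by -0.25 between ST5 and ST8, and by -0.57 without ST8 day 5 replicate 2, which was called (adjusted p = 0.0166).

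Between the lines at day 0, the genes called were mostly of PRC2. At both days ST5 and ST8 were set against the same ES arrays, so calls found in both clones are not independent. Between ST5 and ES cells 3 genes were called (3.22% of all genes): Jarid2 was higher in ST5 by 0.27 (SE 0.07, adjusted p = 0.03) and Trim28 by 0.24 (SE 0.05), and Phf19 was lower (-0.35, SE 0.09, adjusted p = 0.0496). Between ST8 and ES cells 6 were called (3.55%): Suz12 was higher in ST8 by 0.44 (SE 0.07, adjusted p = 0.000878), Eed by 0.39 (SE 0.09), Chd7 by 0.32 (SE 0.07), Jarid2 by 0.25 and Trim28 by 0.24, and Phf19 was lower (-0.39, SE 0.09). The Suz12 call between ST8 and ES cells held under all alternatives; every other day 0 call was lost under 4 or more of them. Each ES and each ST5 array, left out in turn, left 0 to 2 calls for ST5, and each ES and ST8 array 1 to 4 for ST8. The mean of both Eed probe sets differed by 0.22 (adjusted p = 0.0538). The 6 calls for ST8 are 15.8% of the 38 genes, and 4 are of the 9 PRC2 genes. Beside them, 2 of 8 definitive endoderm markers were higher in each clone at day 0, with median differences of 0.87 in ST5 and 0.94 in ST8, and 2 of 8 pluripotency markers were lower in each. Their part in these differences was not tested.

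At day 5, 10 genes were higher in ST5 than in ES cells (11.6% of all genes) and 3 lower (11.8%). Bmi1 was higher by 0.82 (SE 0.18, adjusted p = 0.0063), Smarcc2 by 0.57 (SE 0.13), Cbx8 by 0.49 (SE 0.14), Kdm6b by 0.42 (SE 0.10), Eed by 0.38 (SE 0.09) and Suz12 by 0.21 (SE 0.07). Phc1 was lower (-0.95, SE 0.26, adjusted p = 0.0167), as were Kdm2b (-0.64, SE 0.17) and Ring1 (-0.25, SE 0.08). Kdm2b, the CpG-binding subunit of variant PRC1, read 7.69, 7.78 and 7.67 in ST5 and 8.10, 8.50 and 8.45 in ES cells, with no overlap. Of the 13 calls 2 held under all alternatives, those of Bmi1 and Smarcc2. Leaving out ES day 5 replicate 2 or 3, or ST5 day 5 replicate 1 or 2, left 5, 3, 6 and 7 calls, and centring on a common median gave 17 higher and 2 lower. That centring raised the median difference of all genes by 0.09 and took the share of higher genes among all calls from 49.5% to 73.1%. Other marker lists moved too: 3 of 5 visceral endoderm markers were higher in ST5 (median difference 1.46), as were 2 of 8 definitive endoderm and 4 of 8 foregut markers. In turn 4 of 8 pluripotency, 4 of 6 neural and 3 of 9 cell cycle genes were lower. Against these directions, 1 foregut marker was lower and 1 pluripotency marker higher. Their part in these differences was not tested. The mean of both Eed probe sets differed by 0.08 (adjusted p = 0.36).

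Between ST8 and ES cells at day 5, limma called 0 of 38 genes (0.958% of all genes), and 10 had an unadjusted p under 0.05 (26.3%, against 15.8% of all genes). Jarid2 came closest among the genes followed throughout, at 0.27 (SE 0.07, adjusted p = 0.0668). Without ST8 day 5 replicate 2 the count was 8 (5.42% of all genes were then called), and without ES day 5 replicate 1 it was 2 (5.19%). Ezh1 was among the 8, at 0.36 (adjusted p = 0.0184) against 0.24 with all arrays. ST8 day 5 replicate 2 was the farthest of its group for 21 of the 38 genes (55.3%, against 54.2% of all genes). ES day 5 replicate 1 was so for 26 (68.4%, against 51.2%). Smarca2 shows the size of the spread: ST8 read 5.72, 4.80 and 5.81 at day 5, and ES cells 5.38, 5.74 and 5.52.

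**Figure D3:**
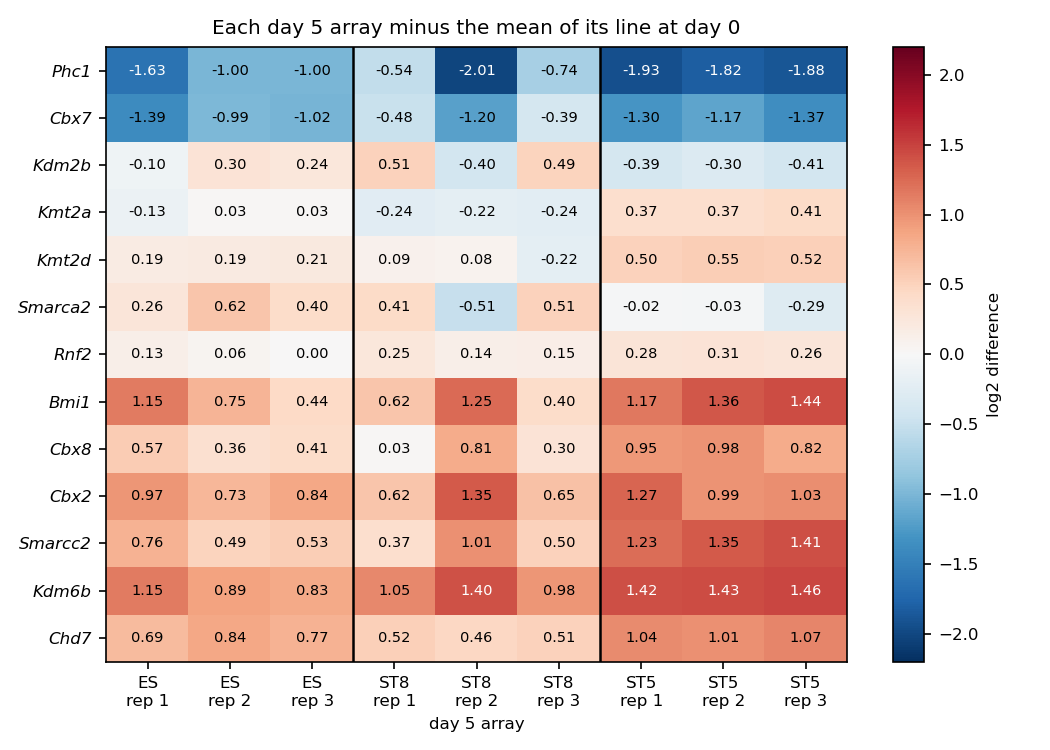
Each cell is a day 5 array minus the mean of the 3 day 0 arrays of its line (log2 difference, colour and number), for 13 genes chosen after their values were seen. ES replicate 1 and ST8 replicate 2 lie nearer to the ST5 arrays than the other ES and ST8 arrays do for Phc1 (-1.63 and -2.01, against -1.82 to -1.93 in ST5), while Chd7 spans 0.69 to 0.84 in ES cells, 0.46 to 0.52 in ST8 and 1.01 to 1.07 in ST5.

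With amplified RNA, in ES cells 8 of 38 genes rose (13% of all genes) and 10 fell (13.8%). The labels do not say whether these were the RNA extracts of the unamplified arrays. In both labellings replicate 1 of the ES cells stood apart at day 5. Whether the cultures were shared was not tested, so the amplified arrays cannot be taken as an independent repeat. In both labellings 16 genes were called, each in the same direction, 42.1% of the 38 against 23.1% of all genes. That background includes dim genes, and most of the 38 are bright. With dim genes left out, 63.4% of all genes kept were called without amplification and 45.5% with it. The share called in both labellings was not computed for the brighter genes. Eed read 10.25, 10.07 and 10.09 at day 0 and 9.11, 9.20 and 9.31 at day 5 (-0.93, SE 0.10, adjusted p = 1.21e-05). The falls of Phc1 (-1.13, SE 0.17), Cbx7 (-0.89), Wdr5 (-0.76), Trim28 (-0.72) and Mtf2 (-0.60) and the rises of Bmi1 (0.81, SE 0.15), Chd7 (0.68), Cbx2 (0.51), Smarcc2 (0.44), Kmt2d (0.41) and Kdm6b (0.40) were called. Smarca2 rose by 0.67 (SE 0.16, adjusted p = 0.00811), from 6.05, 6.00 and 5.96 to 6.23, 6.91 and 6.88. The low day 5 value is on replicate 1, the array that stood apart, and the rise was 0.89 without it. Phc1 read 7.85 there and 8.60 and 8.65 on the others, and its fall was -0.87 without that array. Suz12 fell by 0.55 and Jarid2 by 0.51; Ezh2 (-0.09), Ezh1 (0.14) and Smarca4 (-0.02) were not called. The single probe set values for Eed and Kmt2d fell to -0.38 and 0.25 when each gene's 2 probe sets were averaged, both still called.

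In the embryo, foregut endoderm and the ENDM1-negative cells differed in 3 of these genes: 2 were higher in foregut (3.71% of all genes) and 1 lower (4.43%). Phf19 read 5.24, 5.67 and 5.41 in foregut and 6.58, 6.62 and 6.05 in the ENDM1-negative cells, with no overlap, a difference of -0.97 (SE 0.16, adjusted p = 0.00274). Bmi1 read 7.50, 8.05 and 7.98 in foregut and 7.44, 6.93 and 7.30 in the other cells, 0.62 higher (SE 0.15, adjusted p = 0.0268). Smarcc2 read 8.33, 8.33 and 8.49 against 8.11, 7.94 and 8.10, 0.33 higher (SE 0.09, adjusted p = 0.0343). The lowest foregut array of Bmi1 lay just above the highest of the other cells. Bmi1 and Smarcc2 also rose from day 0 to day 5 in culture, and Phf19 fell there in ES cells without amplification.

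Only the Phf19 call held under all alternatives. The Bmi1 call was lost when only the embryo groups were fitted (adjusted p = 0.0582) and without ENDM1-negative replicate 2 (0.0984) or 3 (0.0534) or foregut replicate 2 (0.0973) or 3 (0.094); that of Smarcc2 was lost without any 1 of the 6 embryo arrays, at 0.0591 to 0.126. Jarid2 (0.34, SE 0.11, adjusted p = 0.0751), Eed (-0.18), Suz12 (-0.18), Ezh2 (0.05), Ezh1 (0.17), Smarca2 (-0.32) and Smarca4 (0.00) were not called. Of the 96 other genes 1 was higher, the BAF subunit Smarcd3 (0.55, SE 0.10), and 5 were lower, with Baz1a (-0.67, SE 0.08), an ISWI partner, Asxl2 (-0.51), L3mbtl2 (-0.48) and Mta3 (-0.43) the largest. Beside these values, 7 of 8 definitive endoderm, 5 of 8 foregut and 4 of 5 visceral endoderm markers were higher in foregut. The visceral endoderm array means were 8.12 to 9.46 against 5.94 to 6.67. Among surface ectoderm markers 5 of 6 were lower in foregut (5.52 to 5.56 against 6.82 to 7.17). So were 4 of 6 endothelial markers (5.09 to 5.31 against 6.27 to 6.80) and 2 of 6 neural markers. Of 9 cell cycle genes 4 were lower. Their part in the differences was not tested.

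Against amplified ES cells at day 5, foregut was higher in 12 genes (14.7% of all genes) and lower in 2 (9.42%); this comparison shares the foregut arrays with the one before and the ES arrays with the amplified response. After centring on a common median 8 were higher and 3 lower. That centring moved the median difference of all genes by -0.07 and took the share of higher genes among all calls from 61% to 45.1%. Of 5 BAF genes 4 were higher: Smarca2 by 0.49 (SE 0.16), Smarca4 by 0.41 (SE 0.09), Smarcc1 by 0.36 (SE 0.08) and Smarcc2 by 0.36 (SE 0.09). Smarca4 read 9.59, 9.49 and 9.54 in foregut and 9.21, 9.13 and 9.05 in ES cells, with no overlap. Bmi1 was higher by 0.71 (SE 0.15, adjusted p = 0.00526), Mbd3 by 0.55 (SE 0.09), Trim28 by 0.48 (SE 0.09) and Cbx2 by 0.45 (SE 0.08). Ezh2 was higher by 0.30 (SE 0.07, adjusted p = 0.00854) and Ezh1 lower (-0.49, SE 0.08, adjusted p = 0.000916): Ezh2 read 11.08, 11.12 and 11.12 against 10.86, 10.78 and 10.79, and Ezh1 6.62, 6.69 and 6.61 against 7.17, 7.20 and 7.02. Beside these values, all 5 visceral endoderm markers were higher in foregut (median difference 2.40), with array means of 8.12 to 9.46 against 6.09 to 6.60, and 2 of 5 blood markers (6.57 to 6.73 against 5.14 to 5.42). Of 8 pluripotency markers 3 were lower and 2 higher, and of 6 surface ectoderm markers 3 were higher. Of 8 definitive endoderm markers 3 were lower and 1 higher, and of 9 cell cycle genes 3 were higher. Their part in the differences was not tested.

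Phc1 was lower in foregut (-0.57, SE 0.17, adjusted p = 0.0275), at 7.73, 7.82 and 7.85 against 7.85, 8.60 and 8.65 in ES cells. Its call was lost in 7 of 15 alternatives, among them those without ES replicate 2 (adjusted p = 0.106) or 3 (0.115) and without each foregut array (0.0557 to 0.0888). The Smarca2 difference was 0.27 without ES day 5 replicate 1 (adjusted p = 0.13) and its call was also lost without any 1 foregut array (0.0622 to 0.14). Eed (0.03), Suz12 (-0.15) and Jarid2 (0.27) were not called, so for these PRC2 genes no difference from the day 5 ES cells was detectable with 3 arrays a group. Without ES day 5 replicate 1, however, Jarid2 was called as higher in foregut, at 0.35 (adjusted p = 0.0412). For Eed the standard error was 0.10, against a response of -0.93 in culture.

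**Figure D4:**
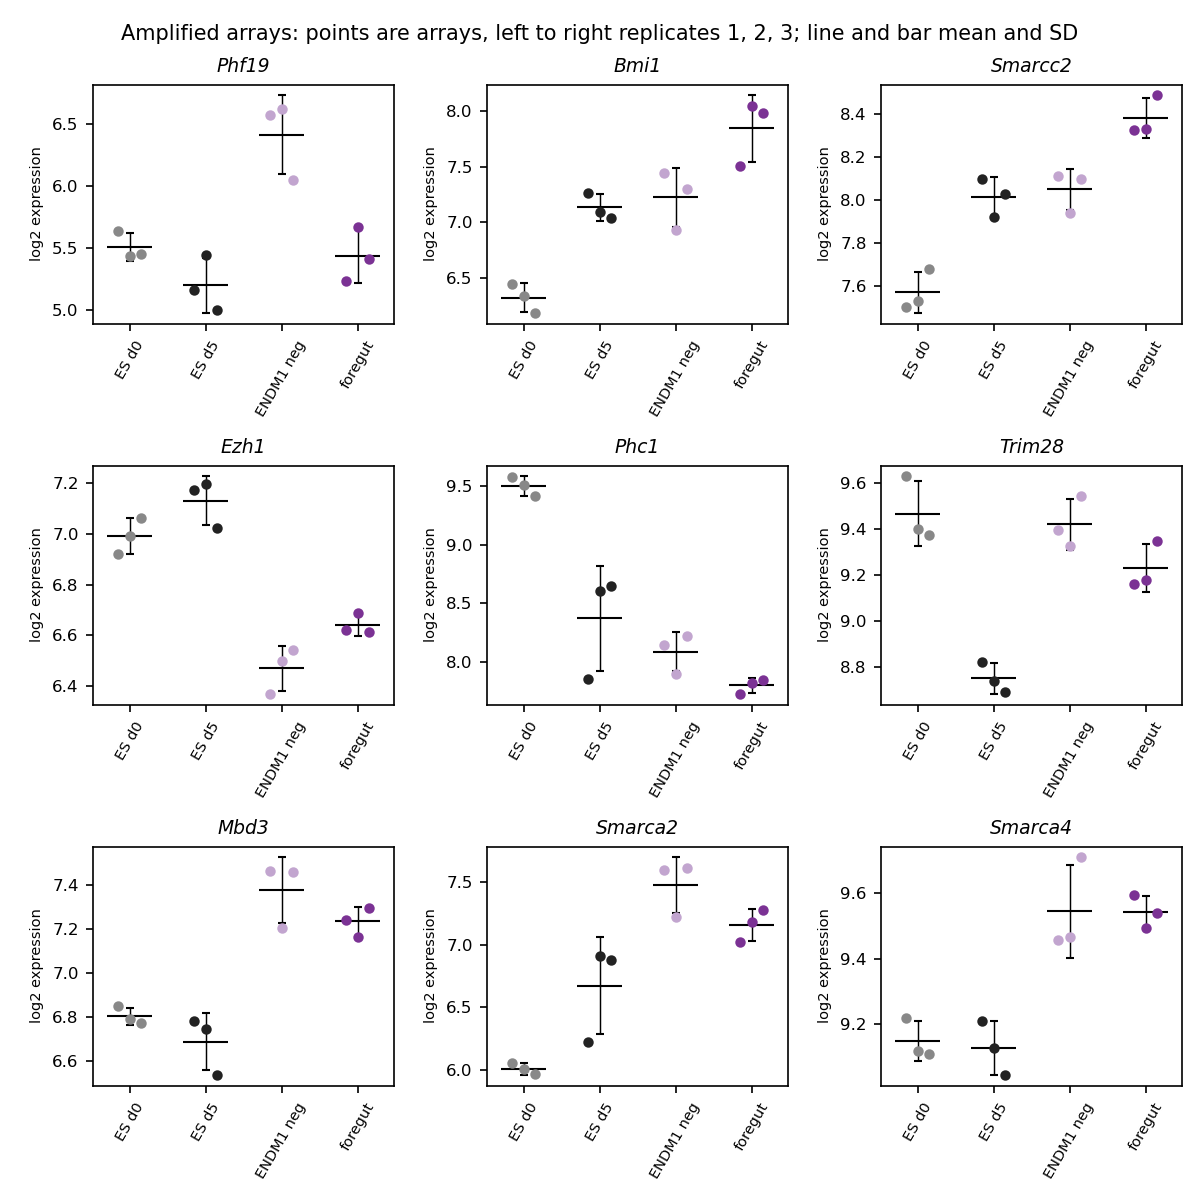
Log2 expression of 9 genes on the 12 amplified arrays, 3 per group, with the mean and SD of each group; vertical axes differ between panels and do not start at 0. Phf19 is highest in the ENDM1-negative cells, Bmi1 and Smarcc2 are highest in foregut, and Ezh1 reads 6.37 to 6.69 in the embryo populations and 6.92 to 7.20 in ES cells.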

How the data were processed

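Affymetrix Mouse Gene 1.0 ST arrays were deposited by the authors as RMA values on the log2 scale, 1 per probe set (RMA is named in the submitters' processing notes). Its version, and whether both labellings were run through it jointly, are not given in the sources used here, so levels were compared within each labelling. Probe sets numbered 35556, of which 21789 name 1 gene. limma 3.58.1 in R 4.3.3 fitted 18 unamplified arrays (12 residual degrees of freedom) and 12 amplified arrays (8), with Benjamini-Hochberg adjustment over 19938 genes and 13 contrasts. Standard errors come from these fits. p-values measure the spread between replicates that the labels call biological. Arrays have no read depth; their number limits the precision. The methods were tested on simulated data.

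The genes and lists were chosen with earlier results of these data known. Named genes are the 6 largest called rises and falls of a response or foregut comparison and the 4 largest between lines, with Ezh2, Ezh1, Eed, Suz12, Jarid2, Smarca2 and Smarca4 throughout, and other genes where a group is described. Alternatives were other normalizations, filters, probe sets and fits, the replicate block and leaving out each array. The labels do not pair the replicate numbers. Nor do the data within a labelling: in 0 of 21 pairs of groups was every correlation of deviations over 0.1 (range -0.65 to 0.50). Pairs of an amplified with an unamplified group were not checked.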

Additional observations from a re-analysis of the deposited data

Results flagged for a closer look

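A test of the difference itself called 4 genes for a response from day 0 to day 5 that differed between lines. For ST5 against ES cells the call was 2.63% of the 38 genes, against 5.58% of all genes. The shares were 2.63% against 0.838% for ST8 against ES cells and 5.26% against 2.17% between the clones. Smarcc2 rose more in ST5 than in ES cells by 0.74 on the log2 scale. The response of Pcgf1, which rose in ST8 and was not called in ES cells, was higher in ST8 by 0.56. Between the clones the ST5 response exceeded that of ST8 by 0.62 for Kmt2a, which rose in ST5 and fell in ST8. For Chd7, which rose in both, it did so by 0.54. The calls of all 4 were lost under some of the alternatives, as given above. Groups of 3 arrays are too small for a test of single outlying arrays.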

How the results depend on the processing

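Of 220 counts of called genes recomputed under the alternatives, 147 stayed within 1.5 times the reported count, and no called value changed sign. Leaving out 1 array at a time gave 24 to 27 calls in the ES response, 23 to 25 in ST5, 22 to 29 in ST8, 16 to 18 in ES cells after amplification and 9 to 12 between foregut and ES cells at day 5 (14 reported). The same gave 0 to 3 for the ST5 against the ES response, 0 to 2 for ST8 against ES, 0 to 14 for ST5 against ST8, 0 to 2 and 1 to 4 for ST5 and ST8 against ES cells at day 0, 3 to 14 and 0 to 8 at day 5, and 1 to 2 between foregut and ENDM1-negative cells. Comparisons between lines thus rest on few calls, and 3 arrays a group limit their precision.

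The ST5 against the ES response, with 1 call reported, gave 2 after a further quantile normalization, 6 with arrays shifted to a common median, 5 without dim genes, 5 with an intensity trend, 6 with only the groups of the contrast, 3 with all 30 arrays in 1 fit and 10 without ES day 5 array 1 and ST8 day 5 array 2. ST8 against ES, with 1, gave 0 with only its groups, 0 with all arrays and 3 without both arrays. ST5 against ST8, with 2, gave 4 with a common median, 5 without dim genes, 4 with mean probe sets, 4 with an intensity trend, 0 with only its groups, 4 with all arrays and 14 without both arrays. At day 0, ST5 against ES cells (3) gave 0 with only its groups and 0 with all arrays, and ST8 (6) gave 2 with all arrays. At day 5, ST8 against ES cells (0) gave 1 without dim genes, 1 with an intensity trend and 8 without both arrays. Foregut against ENDM1-negative cells (3) gave 6 with an intensity trend and 1 with only its groups. The cause of these changes was not tested. Fits on fewer arrays have fewer degrees of freedom.

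With the replicate block the responses kept 27, 26 and 27 calls in ES cells, ST5 and ST8 and 17 in amplified ES cells. The replicate block gave 2, 6, 12 and 0 for the clones against ES cells at day 0 (ST5, ST8) and day 5 (ST5, ST8), 1, 1 and 2 for the differences of responses, and 3 and 12 for foregut. The labels do not pair these numbers, and the check within a labelling cannot exclude a pairing.

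Of the values of genes followed throughout, 52 under alternatives had the opposite sign. They belong to 17 values of a gene in a comparison, none of them called. A further quantile normalization gave -0.033 for Jarid2 and -0.026 for Smarca4 in the ST8 against the ES response, -0.0045 for Ezh1 and -0.012 for Smarca4 in ST8 against ES cells at day 0, -0.028 for Ezh2 and -0.038 for Smarca4 at day 5, 0.0087 for Smarca4 in the amplified response, 0.047 for Smarca4 in foregut against ENDM1-negative cells and -0.011 for Eed in foregut against ES cells. A common median gave -0.066 for Ezh1 in the ES response, 0.078 for Suz12 in the ST5 against the ES response, 0.026 for Ezh1 in ST5 against ES cells at day 5 and -0.034 for Eed in foregut against ES cells. Mean probe sets gave -0.14 and -0.077 for Eed in ST5 against the ES and the ST8 response and -0.045 in foregut against ES cells. Without both arrays, Suz12 in the ST5 against the ES response was 0.00079, and ST8 against ES cells at day 5 gave -0.029 for Ezh2 and 0.14 for Smarca2.

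Leaving out 1 array gave -0.064 to 0.057 for Ezh1 in the ES response, -0.063 to 0.059 for Ezh1 in ST8 against ES cells at day 0, and -0.020 to 0.12 for Eed in foregut against ES cells. Ezh2 in ST8 against ES cells at day 5 ranged from -0.035 to 0.084, Jarid2 in the ST8 against the ES response from -0.040 to 0.087, and Suz12 in the ST5 against the ES response from -0.043 to 0.063. Smarca2 ranged from -0.29 to 0.22 in ST8 against ES cells at day 5, from -0.47 to 0.036 in the ST8 against the ES response and from -0.047 to 0.46 in the ST8 response. Smarca4 ranged from -0.063 to 0.020 in the amplified response, -0.031 to 0.030 in ST8 against ES cells at day 0, -0.0051 to 0.036 at day 5, -0.015 to 0.045 in the ST8 against the ES response and -0.047 to 0.079 in foregut against ENDM1-negative cells.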
